A study of Mus musculus with 6 samples.

Results

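The genes described here are 30 genes of cholesterol synthesis and sterol control, chosen by symbol, and 30 of the 30 were found among the 17564 genes of the deposited table. They comprise 19 enzymes of the route from acetyl-CoA to cholesterol, 7 genes that sense sterols, steer the SREBP transcription factors or move sterols inside the cell, and 4 genes of the LXR receptor and of cholesterol export. RNA came from whole back skin of wild-type C57BL/6 mice that were 8 weeks old, and the hair of both groups was shaved and removed with a depilatory before sampling. The untreated group (3 samples) received nothing further. In the treated group (3 samples) the back was given 3 µg of SspA, a staphylococcal enzyme also called V8 protease, along with 10 µg of HDM, an extract of house dust mite. This dose was given again after 3 days, and skin was taken 7 days after the first; the day of sampling is not stated for untreated mice. Whether replicate samples stem from different mice is not stated, so p-values measure only how these samples spread, and that spread may be technical.

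Cells make cholesterol from acetyl-CoA by way of mevalonate, isoprenoid units, squalene and lanosterol. When membranes of the endoplasmic reticulum hold little sterol, the escort protein SCAP carries the precursors of the SREBP factors to the Golgi, where they are cut and released to switch on the enzymes, and when sterol is plentiful the INSIG proteins hold SCAP back. Oxysterols, which accumulate with sterol excess, activate the LXR receptors, which switch on the exporters ABCA1 and ABCG1 and the ubiquitin ligase MYLIP. In skin, the epidermis makes cholesterol for its lipid barrier, and sebaceous glands are rich in lipid synthesis as well.

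Values below are scaled reads per gene, the unit of the deposited table, and libraries are written as U1, U2, U3 (untreated) and T1, T2, T3 (treated), with values listed in that order. The reads behind them numbered 4928245 (U2) to 7545567 (T3) per library, and no member had fewer than 32 reads in any library. A gene was called where limma on log2(scaled reads + 1) gave a Benjamini-Hochberg adjusted p under 0.05 over the 15534 genes tested. All 30 members passed the filter on low reads. Skin markers were present, with reads in all 6 libraries for each gene of the basal and suprabasal keratinocyte, fibroblast and sebaceous gland lists.

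In treated skin, the sterol feedback gene Insig1 was lower by 42%, 3 enzymes of the late pathway and Lpin1 were lower by smaller margins, and 3 LXR-linked genes (Abca1, Abcg1 and Mylip) were higher. Of the 30 members, 3 were called higher (10% of the list, where 9.26% of all genes tested were called higher) and 5 lower (16.7%, where 7.23% were called lower). The median log2 fold change was -0.15 over the members and 0.03 over all genes tested. Groups were without overlap for 4 members that were higher in treated skin and 12 that were lower, which compares with 21.7% and 15.6% of all genes tested (37.3% in either direction). The share of members called higher was thus near that of all genes. With edgeR on the recovered reads, 3 members were called higher and 7 lower, where 8.04% and 7.75% of all genes were. With DESeq2, 2 members were called higher and 7 lower, where 8.03% and 8.6% of all genes were.

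**Figure D1:**
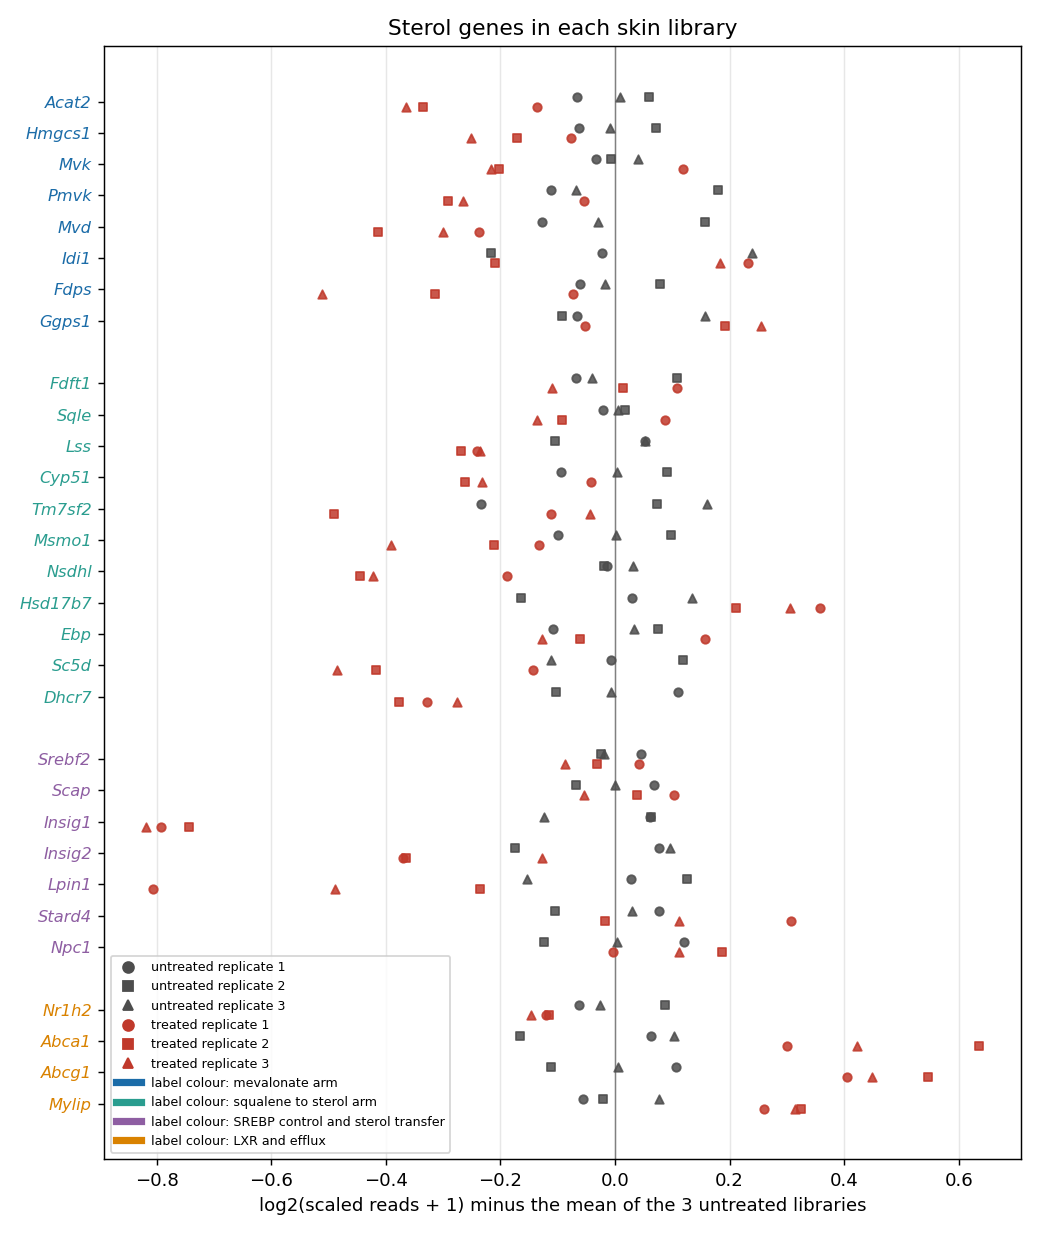
Level of each of the 30 sterol genes in each library, as log2(scaled reads + 1) minus the mean of the 3 untreated libraries (horizontal axis), with untreated libraries in grey and treated libraries in red. Insig1 lies far to the left with all 3 treated libraries between 408 and 429 scaled reads against 660.1 to 751 untreated, and Abca1, Abcg1 and Mylip lie to the right in all 3 treated libraries.

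Of the 7 control and transfer genes, 2 fell (Insig1 and Lpin1, 28.6%, where 7.23% of all genes tested were called lower). None was called higher by limma, edgeR or DESeq2 or at an unadjusted p under 0.05, and the median log2 fold change was -0.03. INSIG1 and INSIG2 are the membrane proteins that retain SCAP, and Insig1 is itself switched on by SREBP. Insig1 (mm10 chromosome 5, 28071412 to 28078662) had 750.5, 751 and 660.1 scaled reads untreated and 415, 429 and 408 treated. The treated libraries lay close together and far below the untreated ones. Insig1 fell from 721 ± 52.4 to 417 ± 11 scaled reads (SD, n = 3), a log2 fold change of -0.78 ± 0.08 SE (adjusted p = 0.00135, limma). It was called lower in each of 21 alternatives (adjusted p 2.47e-09 to 0.0117), including each of the 6 that left out 1 library.

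Insig2, the second retention gene, had 832, 699 and 843 scaled reads in the untreated and 609.5, 612 and 722 in the treated libraries. T3 lay above U2, so the groups overlapped. Its log2 fold change was -0.29 (95% interval -0.52 to -0.05, adjusted p = 0.0909, limma), and it was called without T3 (adjusted p = 0.0356). Within each library, the ratio of Insig1 to Insig2 was 0.902, 1.08 and 0.783 untreated and 0.681, 0.701 and 0.565 treated. The ratio was lower in 3 of 3 treated libraries, with an exact two-sided permutation p of 0.1, the smallest that 3 against 3 samples allow.

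Lpin1 (chromosome 12, 16535669 to 16589770) encodes lipin 1, a phosphatidate phosphatase of fat synthesis that also restrains SREBP in the nucleus. It had 1192, 1275 and 1051 scaled reads untreated and 668, 993 and 833 treated. The treated libraries were lower without overlap but spread widely, with T2 near U3. Lpin1 fell by 0.51 on the log2 scale (SE 0.14, adjusted p = 0.0372, limma) and was called in 14 of 21 alternatives. Leaving out 1 library ended its call in 4 cases, and the adjusted p was then 0.105 (U1 left out), 0.116 (U2), 0.0854 (T1) and 0.0519 (T3).

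The remaining control and transfer genes did not pass the test. Srebf2, the SREBP gene most tied to cholesterol synthesis, ranged from 1341 to 1406 scaled reads untreated and from 1283 to 1404 treated (log2 fold change -0.03, 95% interval -0.18 to 0.13). Scap ranged from 1051 to 1155 and from 1061 to 1184 (0.03, interval -0.14 to 0.20), and its sign turned under several scalings. For both genes the groups overlapped, and the intervals hold no change larger than 0.20 on the log2 scale. Stard4, a sterol carrier of the cytosol (0.13, interval -0.09 to 0.35), and Npc1, which lets cholesterol out of lysosomes (0.10, interval -0.10 to 0.30), overlapped as well. Exons of Npc1 and of Rmc1 on the opposite strand share 511 bases. Whether counting used strand is not given in the sources used here, so reads of such pairs may not be separated.

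**Figure D2:**
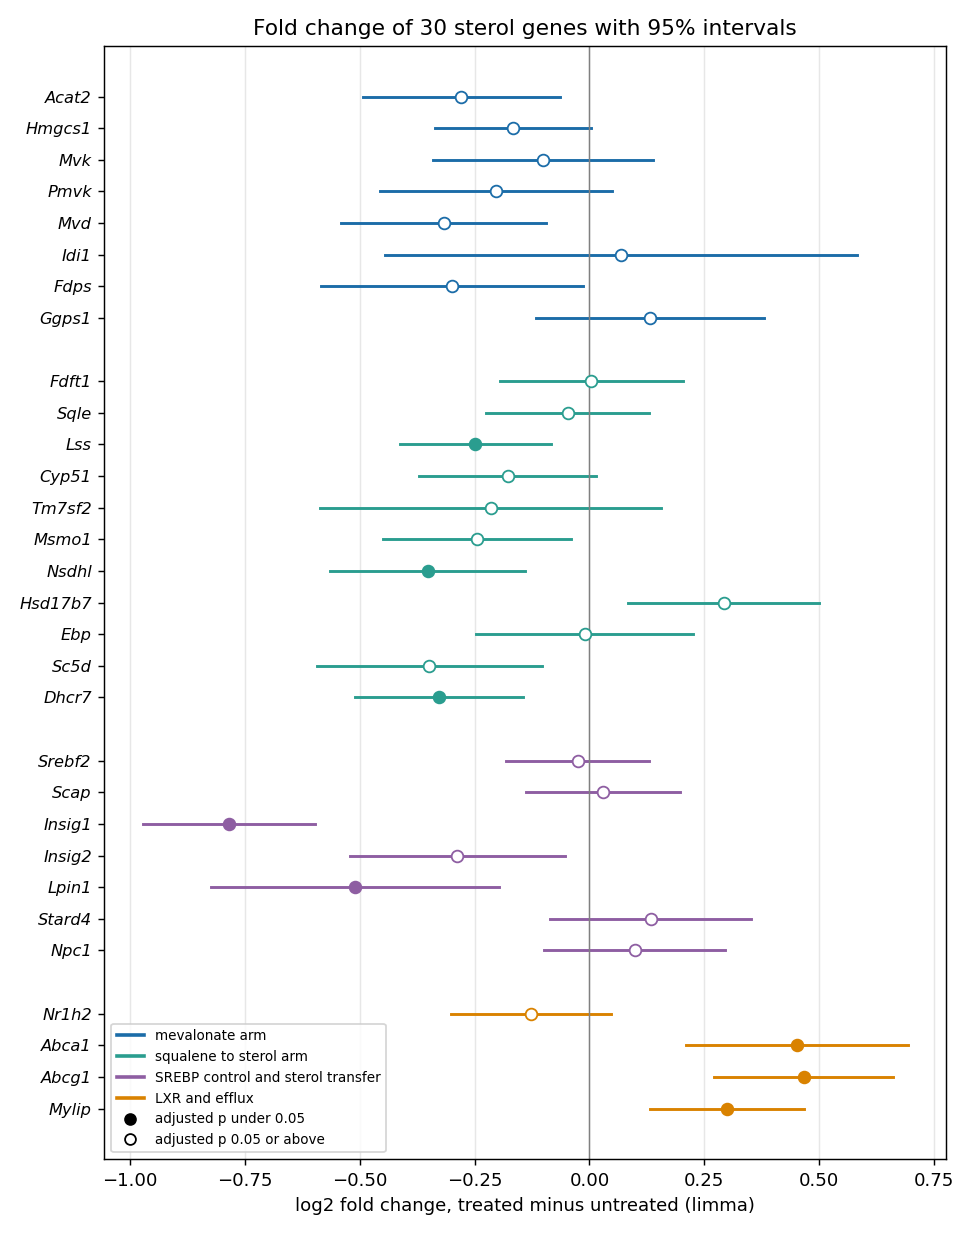
Log2 fold change (treated minus untreated, limma) of the 30 genes in pathway order, with 95% intervals as bars; filled points passed adjusted p under 0.05. The intervals of Srebf2 and Scap span 0, while Insig1 reaches from -0.97 to -0.60 and Abcg1 from 0.27 to 0.66.

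Of the 19 synthesis enzymes, limma called 3 lower (15.8%), where it called 7.23% of all genes tested lower. None was called higher by limma, edgeR or DESeq2. At an unadjusted p under 0.05, 8 were lower and 1 was higher, where 13.2% and 18.2% of all genes tested were. Their median log2 fold change was -0.20, with 15 negative and 4 positive values, while 45.1% of all genes tested had a negative value. With edgeR and with DESeq2 on the recovered reads 5 enzymes were called lower, where 7.75% and 8.6% of all genes were. The added ones were Mvd and Sc5d. In bulk skin, fewer cells of a type and less RNA per cell cannot be told apart.

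In the mevalonate arm, which runs from acetyl-CoA to farnesyl and geranylgeranyl diphosphate, none of 8 genes was called by limma, while 3 were lower at an unadjusted p under 0.05 and edgeR and DESeq2 each called 1 lower. Mvd, the decarboxylase that closes the mevalonate steps, had 470.3, 572 and 503 scaled reads untreated and 435, 386 and 417 treated, without overlap. Its log2 fold change was -0.32 (interval -0.54 to -0.09, adjusted p = 0.0585, limma), just outside the threshold, and it was called by edgeR (adjusted p = 0.0405) and DESeq2 (adjusted p = 0.0442). Acat2, an acetoacetyl-CoA thiolase, had -0.28 (adjusted p = 0.0767), and Fdps, which makes farnesyl diphosphate, had -0.30 (adjusted p = 0.142). Both were lower in 3 of 3 treated libraries. Exons of Fdps overlap those of another annotated gene, Gm43738, on the same strand.

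Hmgcs1, the HMG-CoA synthase, had 1495, 1642 and 1552 scaled reads untreated and 1481, 1387 and 1312 treated. The groups did not overlap, but T1 lay close to U1. Its log2 fold change was -0.17 (adjusted p = 0.168, limma). The kinase genes Mvk (-0.10) and Pmvk (-0.20) had overlapping groups. Idi1, an isomerase of isoprenoid units, was the least abundant member at 16.9 ± 2.76 scaled reads per kilobase untreated and 17.8 ± 2.89 treated (SD, n = 3), with 32 to 65 reads per library, and its interval of -0.44 to 0.58 was the widest among the 30. Ggps1, which leads to geranylgeranyl diphosphate and so away from sterols, had 0.13 with overlap.

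In the arm from squalene to cholesterol, 3 of 11 genes fell (27.3%, where 7.23% of all genes tested were called lower). None was called higher, and edgeR and DESeq2 each called 4 lower. Dhcr7 (chromosome 7, 143823167 to 143848410), the reductase of the last step to cholesterol, had 825, 711 and 760.1 scaled reads untreated and 608, 588 and 631 treated. The groups were well apart. Dhcr7 fell from 766 ± 57.1 to 609 ± 21.5 scaled reads (SD, n = 3), or by 0.33 on the log2 scale (SE 0.08, adjusted p = 0.0273, limma).

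Nsdhl (chromosome X, 72918521 to 72958528), a dehydrogenase that helps to strip methyl groups from the sterol ring, had 487, 485 and 502 scaled reads untreated and 431, 360.5 and 366 treated. It fell by 0.35 on the log2 scale (SE 0.09, adjusted p = 0.0347, limma), with T1 nearest to the untreated libraries. Lss (chromosome 10, 76531605 to 76557139), the synthase that folds squalene epoxide into lanosterol, had 1112, 997 and 1111 scaled reads untreated and 907, 889.8 and 911 treated. Lss fell by 0.25 on the log2 scale (SE 0.07, adjusted p = 0.0474, limma), with 3 treated libraries that nearly coincided. Exons of Lss share 381 bases with 4930483K19Rik on the opposite strand.

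The calls of these 3 enzymes did not survive the loss of most single libraries. For Dhcr7 the adjusted p (limma) was 0.104 (U1 left out), 0.0665 (U3), 0.0673 (T1) and 0.104 (T2). For Nsdhl it was 0.0968 (U1 left out), 0.0783 (U2), 0.0928 (U3), 0.132 (T2) and 0.0659 (T3). For Lss it was 0.155 (U1 left out), 0.137 (U3), 0.0971 (T1), 0.153 (T2) and 0.0613 (T3). The sign of the log2 fold change of each was negative in all 21 alternatives.

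Sc5d, a desaturase of the sterol ring, had 642, 699.9 and 596 scaled reads untreated and 583, 482 and 460.4 treated, without overlap. Its log2 fold change was -0.35 (interval -0.59 to -0.10, adjusted p = 0.0582, limma), and it was called without T1 (adjusted p = 0.0332). Msmo1, a methylsterol oxidase and the most abundant member per length at 515 ± 35 scaled reads per kilobase untreated, went to 435 ± 39.1 (log2 fold change -0.24, adjusted p = 0.0984). Its groups did not overlap.

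Hsd17b7, a ketoreductase that acts beside Msmo1 and Nsdhl in removal of the methyl groups, stood against the other late enzymes. It had 743, 649.7 and 799 scaled reads untreated and 933, 843 and 899.9 treated. All 3 treated libraries were higher, with a log2 fold change of 0.29 (interval 0.08 to 0.50, adjusted p = 0.0608, limma), and it was called in none of the alternatives (adjusted p 0.0503 to 0.161).

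Several enzymes of this arm showed little difference. Sqle, the squalene epoxidase that acts at a control point of the pathway, ranged from 980.2 to 1006 scaled reads untreated and from 905 to 1056 treated (log2 fold change -0.05, interval -0.22 to 0.13). Fdft1, which makes squalene, had 0.00 (interval -0.19 to 0.20) and shares 774 exon bases with Ctsb on the opposite strand. Ebp, a sterol isomerase, had -0.01 (interval -0.25 to 0.23). The intervals of these 3 genes reach no further than 0.25 from 0. Cyp51 (-0.18, adjusted p = 0.19) and Tm7sf2 (-0.21, adjusted p = 0.413), whose exons overlap those of Vps51 on the same strand, had overlapping groups.

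**Figure D3:**
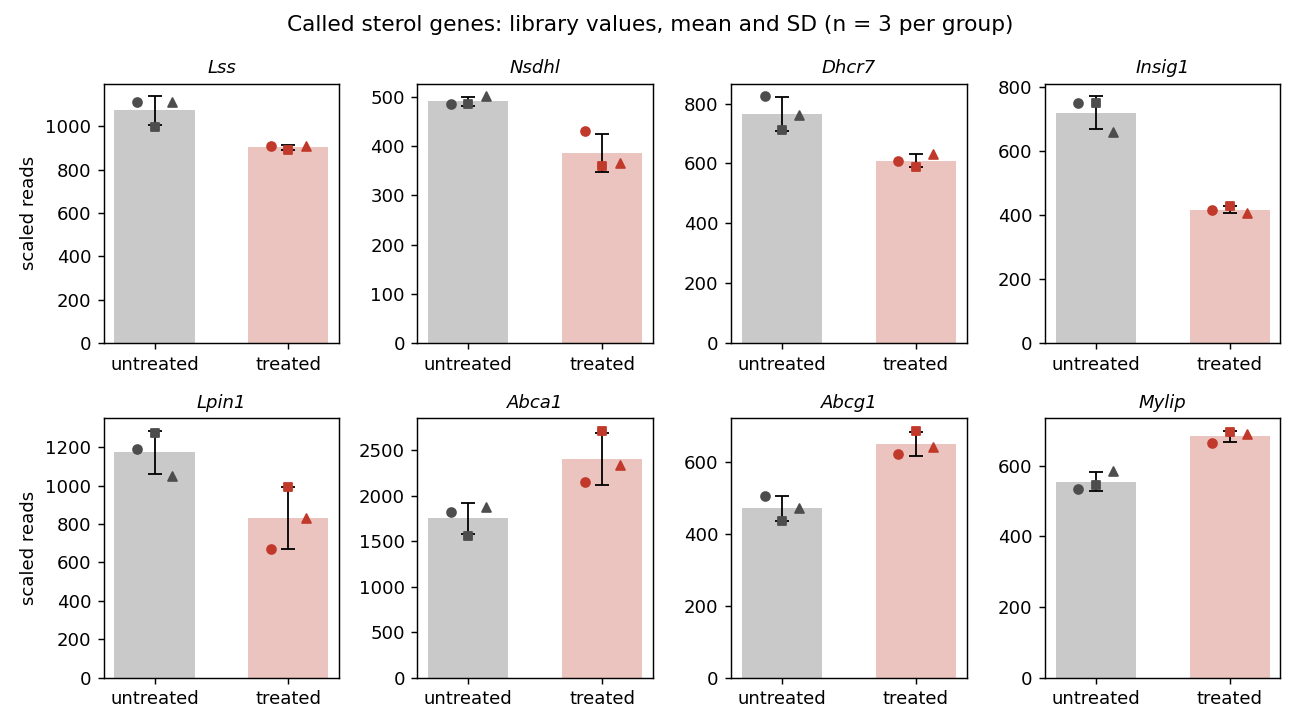
Scaled reads (vertical axes, from 0) of the 8 called sterol genes, with bars for group means, error bars for the SD (n = 3 per group) and points for libraries 1 (circle), 2 (square) and 3 (triangle). The groups do not overlap in any of the 8 panels, and the spread of treated libraries is wide for Lpin1 (668 to 993) and narrow for Lss (889.8 to 911).

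The LXR and efflux genes went the other way, with 3 of 4 called higher (75%, where 9.26% of all genes tested were). Their median log2 fold change was 0.38. Abca1 (mm10 chromosome 4, 53030789 to 53159895), which passes cholesterol to lipid-poor apolipoproteins, had 1827, 1559 and 1879 scaled reads untreated and 2153, 2717 and 2343 treated. All treated libraries exceeded all untreated ones, and T2 was highest. Abca1 rose from 1755 ± 172 to 2404 ± 287 scaled reads (SD, n = 3), a log2 fold change of 0.45 ± 0.11 SE (adjusted p = 0.0232, limma). It was called in 17 of 21 alternatives, and the adjusted p was 0.0565 (U1 left out), 0.0656 (U2) and 0.0806 (T2) in 3 of the others.

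Abcg1 (mm10 chromosome 17, 31057694 to 31117981), which hands cholesterol to lipoprotein particles, had 505, 435 and 472 scaled reads untreated and 622, 686 and 641 treated. It rose by 38.1% (log2 fold change 0.47 ± 0.09 SE, adjusted p = 0.0102, limma) and was called in all 21 alternatives (adjusted p 0.00634 to 0.0479). Of the 8 called members, Insig1 and Abcg1 were the 2 called in every alternative run.

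Mylip (chromosome 13, 45389742 to 45411940), the ligase that marks lipoprotein receptors for breakdown, had 534, 547 and 585 scaled reads untreated and 665, 695 and 689.8 treated. Mylip rose by 23.1% (log2 fold change 0.30 ± 0.07 SE, adjusted p = 0.0277, limma). It was called in 12 of 21 alternatives, and the adjusted p was 0.101 (U1 left out), 0.0717 (U2), 0.0538 (T1) and 0.106 (T2). It was not called by DESeq2 (adjusted p = 0.0916) or in the authors' deposited table (adjusted p = 0.108). Nr1h2, which encodes LXR beta, had 546, 606 and 560.1 scaled reads untreated and 525, 526 and 515 treated. Its groups did not overlap, yet the log2 fold change of -0.13 (interval -0.30 to 0.05, adjusted p = 0.295) did not pass.

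In the authors' deposited table, 7.56% of the 17564 genes were lower and 7.26% higher at adjusted p under 0.05. The authors' deposited table called 7 members lower, namely Insig1, Lpin1, Dhcr7, Nsdhl, Lss, Sc5d and Mvd, and 2 higher, namely Abca1 and Abcg1.

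**Figure D4:**
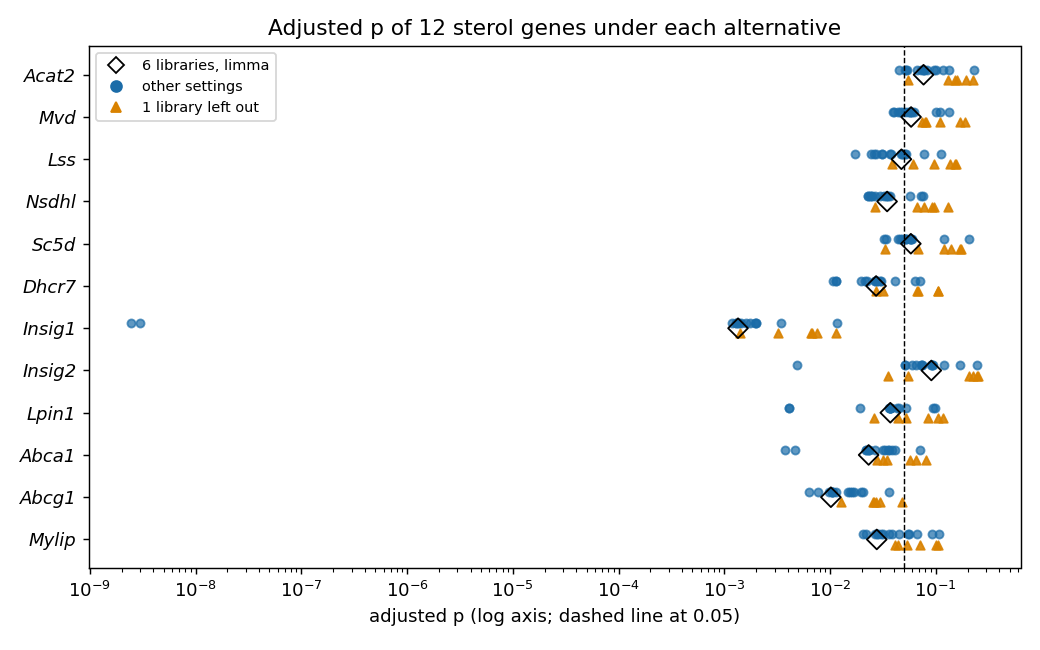
Adjusted p (log axis) of the 12 sterol genes that were called with the 6 libraries or under an alternative; diamonds give the limma value over the 6 libraries, circles other settings, triangles the settings with 1 library left out, and the dashed line the threshold of 0.05. All points of Insig1 and Abcg1 lie left of the line, while those of the other 10 genes fall on both sides.

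Sequence before the transcription start is shown for 5 genes, 3 that fell (Insig1, Lss and Nsdhl), 1 that rose (Abca1) and Hmgcs1. Of the 22 members searched at this start, Hmgcs1 alone held the core of the sterol regulatory element in the spelling searched. Each line gives the 250 bases before the start, 5′ to 3′ on the strand of the gene, from RefSeq (GRCm38.p6), in lower case with motif matches in capitals. The motifs were TCACNCCAC, 1 spelling of the core at which SREBP binds, and CCAAT, the box of NF-Y, a factor known to act beside SREBP. Also searched was the LXR direct repeat of an AGGTCA pair spaced by any 4 bases. Both strands were searched, so CCAAT on the other strand reads ATTGG. Among called members not shown, Dhcr7, which fell, held no CCAAT at this start, and Mylip, which rose, held it. The windows lie at chr5:28071162-28071411 (plus strand) for Insig1, chr10:76531355-76531604 (plus) for Lss, chrX:72918271-72918520 (plus) for Nsdhl, chr13:119690101-119690350 (plus) for Hmgcs1 and chr4:53159896-53160145 (minus) for Abca1.
Insig1: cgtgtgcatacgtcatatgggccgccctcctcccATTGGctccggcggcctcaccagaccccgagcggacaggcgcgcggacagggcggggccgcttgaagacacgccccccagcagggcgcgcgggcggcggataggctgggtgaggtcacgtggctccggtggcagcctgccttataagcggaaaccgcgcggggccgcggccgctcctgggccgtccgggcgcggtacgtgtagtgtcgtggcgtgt
Lss: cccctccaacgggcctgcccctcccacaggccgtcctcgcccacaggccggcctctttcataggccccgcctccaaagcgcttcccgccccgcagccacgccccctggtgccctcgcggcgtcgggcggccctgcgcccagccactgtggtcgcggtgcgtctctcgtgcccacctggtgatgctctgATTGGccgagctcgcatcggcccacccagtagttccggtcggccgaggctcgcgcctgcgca
Nsdhl: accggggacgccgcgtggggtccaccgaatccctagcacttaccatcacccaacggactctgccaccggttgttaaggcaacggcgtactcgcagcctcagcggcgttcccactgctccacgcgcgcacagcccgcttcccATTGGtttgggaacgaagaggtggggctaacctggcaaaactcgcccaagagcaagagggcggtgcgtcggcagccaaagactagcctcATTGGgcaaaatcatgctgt
Hmgcs1: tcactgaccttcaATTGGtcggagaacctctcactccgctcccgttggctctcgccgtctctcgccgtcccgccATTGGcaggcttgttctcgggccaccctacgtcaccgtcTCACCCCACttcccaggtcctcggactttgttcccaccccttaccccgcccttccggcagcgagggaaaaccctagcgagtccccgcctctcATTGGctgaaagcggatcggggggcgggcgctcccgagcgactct
Abca1: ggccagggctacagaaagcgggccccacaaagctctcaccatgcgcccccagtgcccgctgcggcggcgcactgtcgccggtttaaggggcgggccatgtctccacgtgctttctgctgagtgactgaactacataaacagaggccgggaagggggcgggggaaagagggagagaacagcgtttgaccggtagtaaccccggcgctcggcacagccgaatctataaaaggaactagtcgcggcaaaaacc

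Windows of 300 bases (250 before to 50 after) at the start of the deposited transcript were matched for 22 of the 30 members and for 12951 genes of the deposited table. CCAAT was present in 16 of these 22 members (72.7%) and in 37.9% of the 12951 genes. Among synthesis enzymes it was present in 13 of 15 (86.7%), with 8 of 9 in the arm from squalene and 5 of 6 in the mevalonate arm, and Acat2 and Dhcr7 were without it. Among control and transfer genes it was present in Insig1 and Srebf2 and not in Insig2 or Scap, and among LXR and efflux genes in Mylip and not in Abca1 or Nr1h2. With all RefSeq starts of a gene counted, some of them far from the deposited one, CCAAT was present in 19 of 24 members (79.2%) and in 41.1% of 27025 genes, and Dhcr7 then held it at a start inside the gene. TCACNCCAC was found at the deposited start in 1 of 22 members, Hmgcs1, 137 bases before the start, and in 1.22% of the 12951 genes. The LXR repeat in this exact spelling was found in none of the 22 members and in none of the 12951 genes. With all RefSeq starts counted, it was found in 4 of 27025 genes and in none of 24 members. So rare a spelling cannot tell whether members hold an LXR site. Neither TCACNCCAC nor the repeat was searched in looser spellings. These motifs do not overlap in the windows shown, and a match is a description of the letters alone.

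Other genes of the pathway were taken from lists written with earlier results known. Among 10 tested genes of acetyl-CoA supply and further sterol steps, 5 fell (50%, where 7.23% of all genes tested were called lower). None was called higher by limma, edgeR or DESeq2, and none was higher at an unadjusted p under 0.05. The median was -0.23. Acss2, which makes acetyl-CoA from acetate, had 894, 1096 and 856 scaled reads untreated and 433, 468 and 509 treated, and fell by 1.01 on the log2 scale (SE 0.11, adjusted p = 0.00154, limma). Aacs, which activates acetoacetate, fell by 0.54 (adjusted p = 0.0032), Slc25a1, the citrate carrier, by 0.51 (adjusted p = 0.0115) and Acly, the citrate lyase, by 0.48 (adjusted p = 0.00741). Acss2, Aacs, Slc25a1 and Acly were called with each library left out in turn. These suppliers of acetyl-CoA also serve fatty acid synthesis.

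A list of 13 tested genes held Srebf1 and genes that process or degrade SREBP pathway proteins. By limma 1 fell and 1 rose (7.69% each), where 7.23% of all genes tested were called lower and 9.26% higher. Srebf1, the SREBP gene tied to fatty acids as well as sterols, went from 1268 ± 35.7 to 1016 ± 35.3 scaled reads (log2 fold change -0.32 ± 0.07 SE, adjusted p = 0.0156, limma). It was not called with U1 (adjusted p = 0.0647) or T2 (0.0525) left out. Sec24d, a coat protein of transport from the endoplasmic reticulum, had 0.41 (adjusted p = 0.0329), and was not called by edgeR (adjusted p = 0.0544) or with U1 (0.0501), U2 (0.099), U3 (0.0712), T1 (0.06) or T2 (0.121) left out. Rnf145, a ubiquitin ligase, had 0.18 (adjusted p = 0.0933). Among 15 tested genes of sterol uptake, storage and transfer, 3 rose (20%) and 1 fell (6.67%), where 9.26% and 7.23% of all genes were. Lipa, the lysosomal acid lipase that frees cholesterol from its esters, went from 418 ± 46.4 to 634 ± 44.3 scaled reads (0.60, adjusted p = 0.00749), and Stard3, a sterol carrier of late endosomes, had 0.34 (adjusted p = 0.0381), a call lost with edgeR (0.0564), with DESeq2 (0.181) and with any 1 of the 6 libraries left out (0.052 to 0.13). Soat1, which esterifies cholesterol for storage, went from 1285 ± 79.8 to 954 ± 66.2 scaled reads (-0.43, adjusted p = 0.0111).

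Among 12 tested further genes of LXR, oxysterols and efflux, limma called 2 higher (16.7%, where 9.26% of all genes were) and none lower. By edgeR 1 was lower, by DESeq2 none, and 1 was lower at an unadjusted p under 0.05. The median log2 fold change was 0.04, with 7 positive and 5 negative values. Cyp7b1, an oxysterol hydroxylase, went from 70.6 ± 12.8 to 202 ± 68.7 scaled reads (1.46, adjusted p = 0.00996), and Abcg4, a relative of Abcg1, from 92.8 ± 19.3 to 169.9 ± 24.7 (0.88, adjusted p = 0.0192). Abcg4 was not called with T2 left out (adjusted p = 0.066). Lpcat3, a phospholipid acyltransferase, had -0.23 (adjusted p = 0.0585). Of 13 tested genes of the isoprenoid branch, which prenylates proteins and builds dolichol and ubiquinone, none was called by limma, edgeR or DESeq2, and 1 was higher and 2 lower at an unadjusted p under 0.05. Their median was -0.02, and the smallest adjusted p belonged to Pdss2 (-0.51, 0.0696), Pggt1b (0.26, 0.141) and Rce1 (-0.23, 0.143).

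Several lists of cell markers also differed between untreated and treated skin, and their part in the results was not tested. Of all genes tested, limma called 7.23% lower and 9.26% higher, edgeR 7.75% and 8.04%, and DESeq2 8.6% and 8.03%. At an unadjusted p under 0.05 (limma), 13.2% were lower and 18.2% higher. Of 15 sebaceous gland markers, 9 fell and none was called higher by limma (8 lower by edgeR, 11 by DESeq2, and none higher by either tool or at an unadjusted p under 0.05). Their summed level was 12772 to 13431 scaled reads untreated and 8478 to 9631 treated, and no marker was at 0. Dgat2 (-0.57), Elovl5 (-0.46) and Cidea (-0.66) had the smallest p. Of 12 monocyte and macrophage markers, 6 rose and none was called lower by limma, edgeR or DESeq2 or at an unadjusted p under 0.05. Their summed level was 4414 to 6010.3 scaled reads untreated and 6842 to 9160.1 treated, with Cd68, Adgre1 and Csf1r above 0 in all 6 libraries. The 6 that rose were Trem2 (2.47), Ly6c2 (2.41), Cd14 (1.36), Fcgr1 (1.22), Cd68 (0.69) and Gpnmb (0.60). Basal keratinocyte markers summed to 13508 to 14122 untreated and 11053 to 14186 treated (2 of 8 lower), suprabasal ones to 13097 to 13956 and 11452 to 12971 (2 of 9 lower), and adipocyte markers to 9713 to 12097 and 7704 to 8798 (4 of 12 lower by limma, 5 by edgeR and 8 by DESeq2, with 12 of 12 negative). Of 9 tested neutrophil markers 8 were higher and of 9 tested inner root sheath and hair shaft markers 7 were higher, with Ly6g, Trem1, Krt72, Krt31 and Krt85 at 0 in at least 1 library. Of 10 skeletal muscle markers 3 were called lower by limma, 3 by edgeR and 8 by DESeq2. All 10 were lower at an unadjusted p under 0.05, where 13.2% of all genes tested were. All 10 were lower without overlap of the groups, where 15.6% of all genes tested were. Several were near the highest reads per base of any gene (Ckm 0.910, Tnnt3 0.923), so their scaled values may partly follow library depth. Of 8 fibroblast markers limma called none, while edgeR and DESeq2 each called 1 lower and 1 was lower at an unadjusted p under 0.05.

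**Figure D5:**
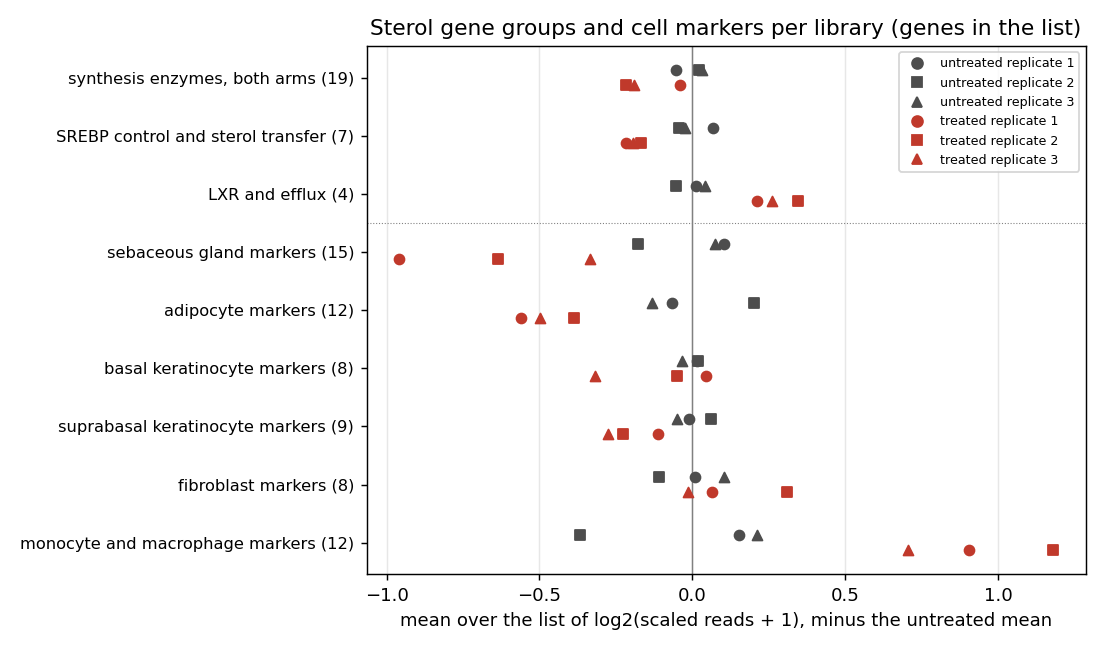
Mean of log2(scaled reads + 1) over each list, minus the untreated mean, in each library; grey is untreated and red is treated, and the number of genes in a list stands in brackets. The 3 treated libraries lie left of the untreated ones for sterol control genes and for sebaceous gland, adipocyte and suprabasal keratinocyte markers. They lie right of them for LXR and efflux genes and macrophage markers, whereas for the synthesis enzymes T1 lies among the untreated libraries. The shift of the control genes comes mainly from Insig1, Lpin1 and Insig2, and the median log2 fold change of that list was -0.03.

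The treated libraries differed among themselves in the synthesis enzymes. The mean over the 19 enzymes, relative to the untreated mean on the log2 scale, was -0.05, 0.02 and 0.03 in the untreated and -0.04, -0.22 and -0.19 in the treated libraries. T1 thus lay within the untreated range. T1 was the highest treated library for 15 of the 19 enzymes, whereas it was so for 38.1% of all genes tested. For the 7 control and transfer genes the treated means were -0.22, -0.17 and -0.19, and for the 4 LXR and efflux genes 0.21, 0.35 and 0.26, all outside the untreated ranges. The control means come mainly from Insig1 (log2 fold change -0.78), Lpin1 (-0.51) and Insig2 (-0.29). Srebf2 (-0.03), Scap (0.03), Stard4 (0.13) and Npc1 (0.10) lay near 0 or above. Among the marker lists, T1 was also the highest treated library for suprabasal keratinocytes (means of -0.11, -0.23 and -0.28 in T1, T2 and T3) and basal keratinocytes (0.04, -0.05 and -0.32). The same held for skeletal muscle (-0.26, -0.28 and -0.59) and neutrophils (3.61, 2.95 and 1.73). T1 was the lowest for sebaceous gland (-0.96, -0.64 and -0.34) and adipocytes (-0.56, -0.39 and -0.50). Reads per base of transcript reached 0.907 for Krt14, 0.901 for Krt1, 0.910 for Ckm and 0.923 for Tnnt3, the highest of any gene. Krt5 had 1738, 1657 and 1692 reads untreated and 1828, 1723 and 1738 treated, although T3 was the deepest library. Scaling to depth then gives T3 a low value, so the order of such markers need not follow cell content. The weight of this limit and the part of these cells in the order of the enzymes were not tested.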

How the data were processed

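Skin of 3 untreated and 3 treated samples gave mRNA libraries (strand-specific kit, per the labels). The submitters' processing notes list STAR, DESeq2, bcl2fastq (2.20.0.422) and build mm10. The read counter, its strand setting and filters were not given in the sources used here. Deposited values are a scaled signal per gene, which proved to be reads times 1 factor per library. Log2 fold changes computed by the authors stand beside them, as do p-values, raw and adjusted, from the authors.

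Dividing by the value of 1 read (0.840228 to 1.28649) gave whole reads for 100% of values, within 0.1 read. Genes passing the edgeR 4.0.16 filter filterByExpr (minimum count 10, total 15) were tested with limma 3.58.1 (R 4.3.3) on log2(value + 1), with a trend in the spread and group as the only term. This scale makes fold changes of low genes too small. Levels were compared between genes only per kilobase. Reads per base of transcript reached at most 0.923 in any library and at most 0.467 in a member, and the deepest library was a treated one, so alternatives on depth were run.

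On recovered reads edgeR called 1249 genes higher and 1204 lower. Alternatives were edgeR, limma-voom and DESeq2 (1.42.0) on those reads, other scalings, pseudocounts (0.5 and 5) and filters, the replicate number as a block, no trend, each library left out, only the 4 libraries of like depth, removal of a trend with reads per base, and the authors' comparison; reads estimated from filled positions were chosen after seeing the data. Members and lists were chosen with earlier results of these data known. All 30 members are named, and of the other lists the 3 genes with the smallest p and, where 5 or fewer were called in a direction, the called ones; some genes that this rule takes are not reported here. On simulated data drawn from these libraries (15534 genes, 200 changed), limma recovered 99% of 3-fold and 59% of 1.5-fold changes and called 13 of 15334 unchanged genes. The changed genes were drawn only from those above a minimum of total reads. Promoters came from RefSeq (GRCm38.p6) and exon overlaps from GENCODE M21. Counting motifs at the deposited transcript's start, rather than at every RefSeq start, was chosen after seeing the data. Figures were drawn with matplotlib 3.10.9.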

Additional observations from a re-analysis of the deposited data

How the results depend on the processing

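Of the 30 members, 24 kept the sign of their log2 fold change in all 21 alternatives. With 3 libraries a group, limma recovered 59% of simulated 1.5-fold changes, and most differences above are smaller than that. This share holds for genes above a minimum of total reads and for 200 changed genes, where 2562 were called in the data. It is thus not the share to be found among the members. Without a trend in the spread, 1 member was called higher and 1 lower, with 0 synthesis enzymes, 1 control gene lower and 1 LXR gene higher. Synthesis enzymes called lower numbered 5 with TMM scaling, with edgeR, with DESeq2 and in the authors' deposited table. With the reads per base trend removed, 1 control gene was lower, since Lpin1 had adjusted p = 0.0521. With the replicate block, 2 members were higher and 3 lower, including 1 synthesis enzyme. Same-numbered libraries had correlations of -0.085, -0.055 and 0.054 over genes, and differently numbered ones -0.098 to 0.146. Whether the numbers pair the samples cannot be told from these values.

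Leaving out 1 library in turn gave 1 to 3 members called higher, 1 to 3 lower, 0 to 2 synthesis enzymes lower, 1 to 2 control genes lower and 1 to 3 LXR genes higher. In the 4 libraries of like depth, Insig2 was called (adjusted p = 0.00489), and Lpin1 (0.0937), Nsdhl (0.0765) and Mylip (0.0558) were not.

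Signs turned for 6 members, none of them called. Fdft1 had -0.029 with edgeR, -0.034 with DESeq2, -0.0296 with limma-voom, -0.030 with TMM scaling, -0.010 with upper quartile scaling and -0.037 in the authors' deposited table, and ranged from -0.048 to 0.062 with 1 library left out (-0.00055 without T2). Scap had -0.0048 with edgeR, -0.0105 with DESeq2, -0.0044 with limma-voom, -0.0052 with TMM scaling and -0.013 in the authors' deposited table, and ranged from -0.0079 to 0.071 with 1 library left out. With the reads per base trend removed, Ebp had 0.020, Idi1 -0.087, Sqle 0.051 and Srebf2 0.047. In the 4 libraries of like depth, Ebp had 0.085, Idi1 -0.097 and Sqle 0.0050. With reads estimated from filled positions Ebp had 0.0025. With 1 library left out, Ebp ranged from -0.094 to 0.048, Idi1 from -0.040 to 0.207 and Srebf2 from -0.060 to 0.0054. The cause was not tested.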
